A study of Rattus norvegicus with 63 samples.

Results

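The medial prefrontal cortex of rats with long daily access to self-administered cocaine was compared with that of rats that had no access to the drug. The comparison rests on 6 of the 63 arrays of the study, chosen by their labels: 3 arrays of long access (6 h of access per day) against 3 arrays of no access (0 h per day, rats that never received cocaine). Cocaine was delivered intravenously at 0.25 mg per injection on a continuous schedule, and the series lists 8 rats for each access group. The 3 arrays of short access (1 h per day) from the same region entered the fit to share its estimate of the spread, and the 54 arrays of the other 5 regions (nucleus accumbens, amygdala, lateral hypothalamus, septum and ventral tegmental area) served as a background. The labels do not say whether RNA of several rats was pooled for an array, nor the strain, sex, age or time since the last session, so p-values measure only the spread between these arrays, which may be technical. The no access rats differ from the long access rats in the drug and in the sessions themselves, and these cannot be told apart here.

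The medial prefrontal cortex is the part of the frontal cortex that sends glutamatergic output to the striatum, amygdala and hypothalamus, and it is studied in cocaine self-administration for its part in controlling drug seeking. Its main neurons are excitatory pyramidal cells, held in check by interneurons that release GABA. The array, an Affymetrix rat neurobiology array, measures each transcript with a probe set, a group of short oligonucleotides that mostly lie towards the 3' end of the transcript. RNA is copied from its 3' end for these arrays, so a transcript that is broken or copied short loses signal from probes that lie far from that end. Control probe sets for the 3' and the 5' part of beta-actin, of Gapdh and of hexokinase therefore measure how complete the copies were. The ratio of the 3' to the 5' signal goes up as copies get shorter, from a level that differs between the controls.

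The beta-actin ratio varied widely within both groups. It was 1.05, 1.72 and 2.55 on long access replicates 1, 2 and 3, against 1.02, 1.20 and 3.81 on no access replicates 1, 2 and 3. Replicate 3 was the highest array of each group, and the groups overlapped. The 3 short access arrays gave the same picture, with 0.995, 1.03 and 3.00. On the 54 arrays of the other 5 regions the ratio lay between 0.826 and 1.54, with a median of 1.14, so that the 3 arrays numbered 3 and long access replicate 2 lay above every array of the other regions. The Gapdh ratio was 1.28, 1.34 and 1.69 on the long access arrays, against 1.29, 1.32 and 1.88 on the no access arrays. The hexokinase ratio was 2.09, 2.50 and 3.80 on the long access arrays, against 1.65, 1.47 and 3.33 on the no access arrays. Replicate 3 was again the highest in each group for both controls. On the 54 arrays of the other 5 regions the Gapdh ratio lay between 1.11 and 1.82, with a median of 1.29. The hexokinase ratio of those arrays lay between 1.29 and 2.37, with a median of 1.79.

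**Figure D1:**
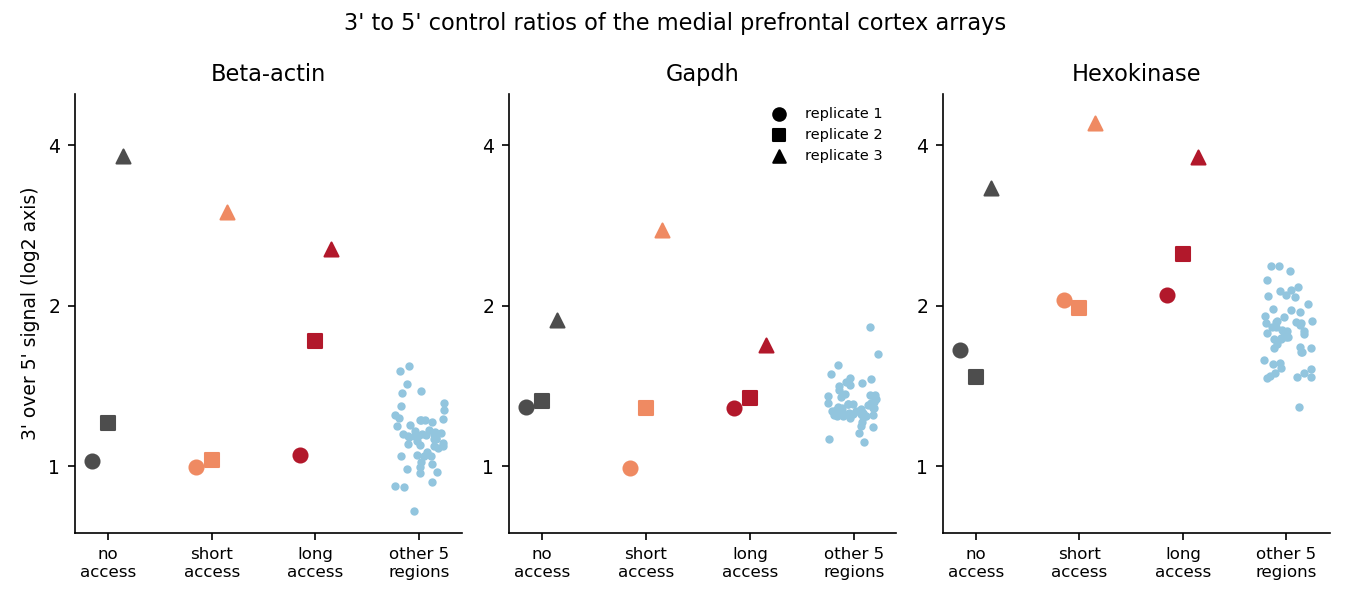
Ratio of 3' to 5' signal of 3 control transcripts on each array, on a log2 axis. Symbols give the replicate number of the 9 medial prefrontal cortex arrays and small blue points are the 54 arrays of the other 5 regions; in all 3 panels and all 3 access groups the triangle, replicate 3, is the highest of its group.

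The signal of the 5' actin probe set after scaling to a common mean per array was 9223, 6028 and 2864 on long access replicates 1, 2 and 3, against 9426, 8492 and 1475 on no access replicates 1, 2 and 3. That of the 3' actin probe set was 9661, 10367 and 7300 on the long access arrays, against 9655, 10211 and 5626 on the no access arrays. Most of the change in the ratio thus lay in the 5' signal. Between the groups the mean log2 actin ratio was 0.73 ± 0.64 with long access and 0.74 ± 1.03 with no access (SD, n = 3 each), a difference of -0.01 with p = 1 in a two-sided exact permutation test. The exact p was 0.8 for the Gapdh ratio, 0.4 for hexokinase, 0.7 for the antisense controls and 0.5 for the bacterial spike-in controls, and after adjustment over these 5 tests every p was 1. With 3 arrays against 3 the smallest exact p is 0.1.

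The arrays numbered 3 stood apart over all transcripts and not in the controls alone. Across 680 probe sets, the correlation of log2 signals was 0.932 to 0.982 (median 0.967) in the 15 pairs of medial prefrontal cortex arrays without a replicate 3, and 0.833 to 0.946 (median 0.897) in the 18 pairs with 1 such array. In the 3 pairs of replicate 3 arrays it was 0.953 to 0.967, so these arrays were as alike as the others although they came from different access groups. The first principal component of the 9 arrays held 63.1% of the variance, and the second 8.36%. Scores on the first were -6.06, -0.64 and 9.06 on long access replicates 1, 2 and 3, against -7.30, -9.27 and 12.17 on no access replicates 1, 2 and 3. The short access arrays scored -7.82, -7.36 and 17.21. Long access replicate 2, whose actin ratio was raised, lay between the low and the high arrays. No correlation of transcripts with the actin ratio is given, because the arrays fall into clusters of high and low ratio with too few arrays in each. The labels give no date or batch for the arrays. Results are given with all arrays and with replicates 1 and 2 alone, an analysis added after the data were seen. Replicates 1 and 2 alone still had uneven actin ratios, at 1.05 and 1.72 with long access against 1.02 and 1.20 with no access. The part of this in their differences was not tested.

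**Figure D2:**
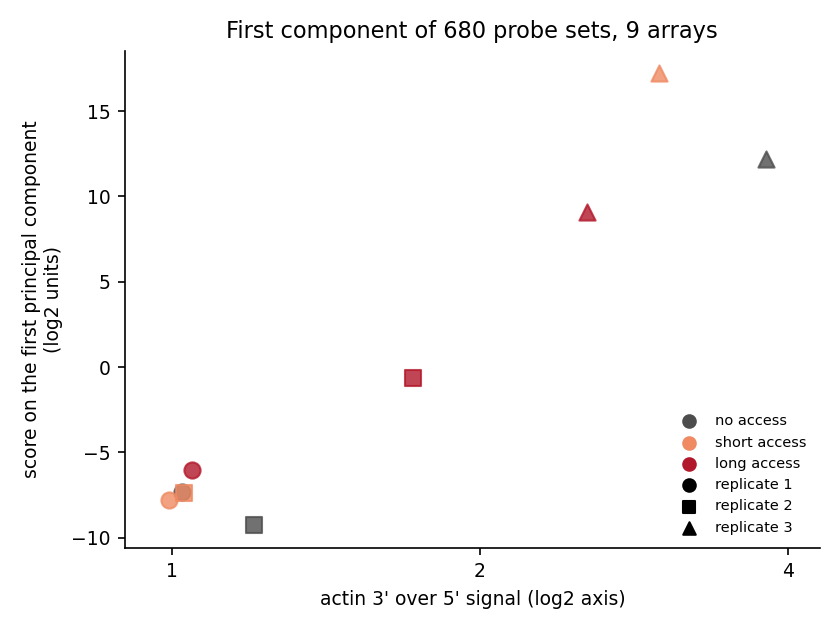
Score of each of the 9 medial prefrontal cortex arrays on the first principal component of 680 probe sets against its actin 3' to 5' ratio, on a log2 axis. The 3 replicate 3 arrays (triangles) lie at scores of 9.06 to 17.21 and long access replicate 2 (red square) lies between them and the other 5 arrays.

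The dissected tissue carried cortical markers. Cck, the cholecystokinin precursor that cortical neurons express strongly, had a mean log2 signal of 12.69 in the medial prefrontal cortex arrays, against 11.70 in the ventral tegmental area, the highest of the other regions. Adra1d, an alpha-1 adrenergic receptor gene, was at 8.24 against at most 5.07 elsewhere in one probe set, where the other regions were near the floor of 5, and at 8.21 against at most 7.81 in another. The postsynaptic calmodulin-binding protein gene Nrgn was at 13.27 against at most 12.81. Camk2a, the kinase subunit of excitatory synapses, was the exception among these markers, at 7.68 in the medial prefrontal cortex and 7.88 in the nucleus accumbens. A second Camk2a probe set was at 6.45 in the medial prefrontal cortex and 7.60 in the nucleus accumbens. In bulk tissue, fewer cells of a type and less RNA per cell cannot be told apart.

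No transcript was found to change with long access. The signals were scaled to a common mean per array and taken as log2, and 680 probe sets with a mean above a signal of 100, standing for 421 named genes, were tested with limma. Of these 680, 0 passed an adjusted p of 0.05 in long against no access (0%), and the smallest adjusted p was 0.996. At an unadjusted p under 0.05 there were 4 (0.588%), of which 2 were higher with long access (0.294%) and 2 lower (0.294%). That is a smaller share than the 0.05 that such a threshold lets through on average where nothing differs. The spread used by the fit includes the distance of replicate 3 from replicates 1 and 2 in each group. The part of this distance in the low count was not tested. With replicates 1 and 2 alone 0 of 680 passed, the smallest adjusted p was 0.276, and 49 probe sets (7.21%) had an unadjusted p under 0.05. Of these 49, 18 were higher with long access, and the part of the uneven actin ratios in this count was not tested. Short against no access had 0 probe sets past the adjusted threshold and 2 under the unadjusted one (0.294%), and long against short access had 0 past it and 2 under the unadjusted one.

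The differences were small for most transcripts, and their errors were not. The median long minus no access difference was 0.03 on the log2 scale, and the 5th and 95th percentiles were -0.46 and 0.39. A difference of 1, which is a 2-fold change, was reached by 7 probe sets (1.03%), those of P2ry4 on the higher side and of Kcnh3, Kcnj10, Vim, Grin1, Igfbp2 and Nlgn3 on the lower side. The median standard error was 0.30, and the 95% confidence interval lay wholly within a 2-fold change either way for 461 probe sets (67.8%). For the other probe sets, a 2-fold change was not excluded by the interval. The residual spread of the region was the widest of the 6, with a median SD of 0.37 over probe sets, against 0.17 to 0.30 in the other regions. Over replicates 1 and 2 alone it was 0.23.

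**Figure D3:**
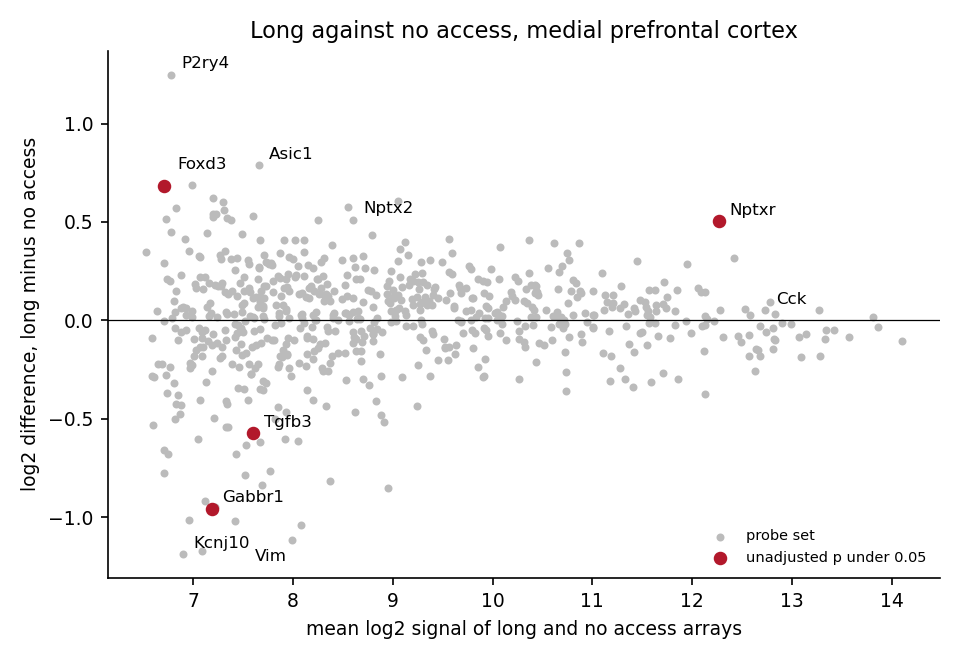
Log2 difference, long minus no access, of each of 680 probe sets against its mean log2 signal on the 6 arrays. Red points are the 4 probe sets with an unadjusted p under 0.05, none of which passed adjustment; the spread narrows from about ±1 at low signals as the signal goes up.

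The 2 probe sets on the higher side with an unadjusted p under 0.05 were those of Nptxr and Foxd3. Nptxr, the neuronal pentraxin receptor of excitatory synapses, had log2 signals of 12.60, 12.51 and 12.45 on long access replicates 1, 2 and 3, against 11.72, 11.91 and 12.42 on no access replicates 1, 2 and 3. Its 3 long access arrays lay above all 3 no access arrays, but by 0.03 only between the replicate 3 arrays, where the no access array was the high one of its group. The difference was 0.51 ± 0.19 (SE; limma, unadjusted p = 0.0264, adjusted p = 0.996), and 0.74 ± 0.14 with replicates 1 and 2 alone (unadjusted p = 0.000813, adjusted p = 0.276). The short access arrays, at 12.36, 12.15 and 12.18, lay below the long access arrays and within the range of the no access arrays. A second Nptxr probe set gave a difference of -0.07, so the 2 measures of the gene had opposite signs.

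Foxd3, a transcription factor of the neural crest, had log2 signals of 7.02, 7.18 and 6.96 on the long access arrays, against 6.17, 6.02 and 6.92 on the no access arrays. The groups did not overlap, with 0.04 between the lowest long access and the highest no access array. The difference was 0.68 ± 0.30 (limma, unadjusted p = 0.0495, adjusted p = 0.996). The probe set carries a suffix by which the maker marks probes shared within a gene family, and its signals were low.

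Nptx2, the secreted neuronal pentraxin that neuronal activity induces and that clusters glutamate receptors of the AMPA type, had log2 signals of 9.95, 9.23 and 7.40 on long access replicates 1, 2 and 3, against 8.02, 8.27 and 8.76 on no access replicates 1, 2 and 3. Replicates 1 and 2 of long access were the high arrays and replicate 3 of long access was the lowest of all. The difference was 0.51 ± 0.54 with all arrays (limma, adjusted p = 0.996) and 1.45 ± 0.26 with replicates 1 and 2 alone (unadjusted p = 0.000554, adjusted p = 0.276), the smallest p of that analysis. The short access arrays, at 9.19, 9.22 and 9.05, lay above every no access array, and the short minus no access difference was 0.81. For long minus no access, the other probe set of the gene gave 0.22 with all arrays and 0.35 with replicates 1 and 2 alone (limma, unadjusted p = 0.199).

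The acid-sensing ion channel gene Asic1 had log2 signals of 8.10, 8.45 and 7.59 on the long access arrays, against 7.09, 7.33 and 7.37 on the no access arrays. The groups did not overlap, and replicate 3 of long access was the nearest to the no access arrays. The difference was 0.79 ± 0.36 (limma, adjusted p = 0.996). The short access arrays spanned 7.21 to 8.58 and overlapped both groups.

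The widest difference of the higher side was that of P2ry4, a purinergic receptor gene for uridine nucleotides. Its log2 signals were 7.43, 7.88 and 6.90 on long access replicates 1, 2 and 3, against 5.59, 5.00 and 7.87 on no access replicates 1, 2 and 3. One no access array was at the floor of 5 set for low signals, and no access replicate 3 was above 2 of the 3 long access arrays. The difference was 1.25 ± 0.75 with all arrays and 2.36 ± 0.49 with replicates 1 and 2 alone (limma, adjusted p = 0.996 and 0.295). Between the replicate 3 arrays it was -0.97.

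On the lower side the smallest unadjusted p belonged to Gabbr1, which encodes a subunit of the metabotropic GABA-B receptor. Its log2 signals were 7.19, 6.41 and 6.51 on long access replicates 1, 2 and 3, against 7.60, 8.08 and 7.32 on no access replicates 1, 2 and 3. The groups did not overlap. The difference was -0.96 ± 0.33 (limma, unadjusted p = 0.0159, adjusted p = 0.996), and -1.04 ± 0.36 with replicates 1 and 2 alone. The 4 other probe sets of Gabbr1 gave -0.44 to -0.17. Of these 4, 2 were much lower on replicate 3 than on replicates 1 and 2 in every access group.

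Tgfb3, a transforming growth factor beta ligand, had log2 signals of 7.44, 7.01 and 7.49 on the long access arrays, against 7.86, 8.10 and 7.70 on the no access arrays. The groups did not overlap, and the nearest arrays were the 2 replicates numbered 3. The difference was -0.57 ± 0.24 (limma, unadjusted p = 0.0416, adjusted p = 0.996), and a second probe set gave -0.23. Atp2b2, a plasma membrane calcium pump, had 7.50, 7.73 and 6.59 on the long access arrays, against 8.48, 8.43 and 7.41 on the no access arrays. Within each replicate number long access was the lower, yet the groups overlapped because replicate 3 was the lowest array in both. Its difference was -0.84 ± 0.44 with all arrays and -0.84 ± 0.24 with replicates 1 and 2 alone (limma, adjusted p = 0.996 and 0.563). The other 3 Atp2b2 probe sets gave -0.47 to 0.02.

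**Figure D4:**
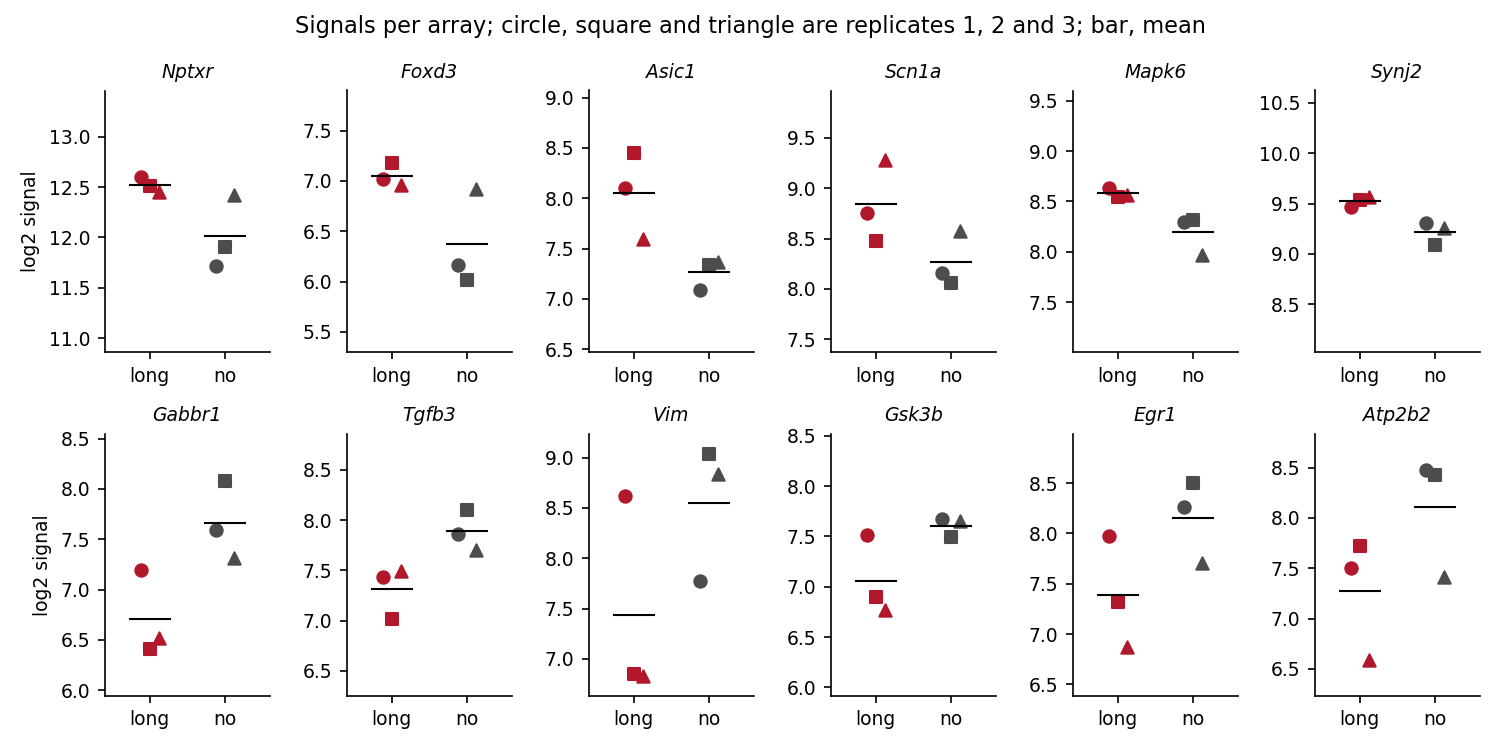
Log2 signal on each long access array (red, left) and no access array (grey, right) for the 6 genes of smallest p on the higher side (top row) and on the lower side (bottom row). Symbols give the replicate number and bars the group means; the groups do not overlap for Nptxr, Foxd3, Asic1, Mapk6, Synj2, Gabbr1 and Tgfb3, and none of the 12 passed adjustment.

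The 3 long access arrays lay wholly above the 3 no access arrays for 15 of 680 probe sets (2.21%) and wholly below them for 7 (1.03%), 22 in all (3.24%). Of the 12 genes of smallest p on the higher side, named whether they passed or not, 5 did not overlap between groups, and of the 12 on the lower side 3 did not. These 24 were picked by their p, so their shares describe the choice. The other 8 on the higher side were Scn1a (0.58), Mapk6 (0.39), Synj2 (0.31), Araf (0.39), Lsamp (0.43), Pcp4 (0.37), Scarb1 (0.37) and Map3k1 (0.45), with the log2 difference in brackets. Scn1a encodes a neuronal sodium channel, Mapk6, Araf and Map3k1 are kinases, Synj2 is a phosphatase of phosphoinositides, Lsamp is an adhesion protein of limbic cortex, Pcp4 binds calmodulin and Scarb1 is a lipoprotein receptor. The other 9 on the lower side were Vim (-1.12), Gsk3b (-0.54), Egr1 (-0.76), Igf2 (-0.85), Ddc (-0.50), Gnb1 (-0.42), Bcl2l1 (-0.61), Pde4b (-0.31) and Ncs1 (-0.95). Gsk3b is a kinase, Ddc makes dopamine and serotonin from their precursors, Gnb1 is a G protein subunit, Bcl2l1 restrains cell death, Pde4b breaks down cyclic AMP and Ncs1 is a neuronal calcium sensor. Other probe sets had the opposite sign for Araf (-0.09), Pde4b (0.16) and 2 of the 4 others of Gnb1 (-0.28 to 0.22). Unadjusted p under 0.05 with replicates 1 and 2 alone was reached by 8 of the 12 on the higher side and 7 of the 12 on the lower side, and the lowest adjusted p among them was 0.276. Between the replicate 3 arrays the sign was the same for 11 and 11; P2ry4 and Gnb1 were the exceptions.

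**Figure D5:**
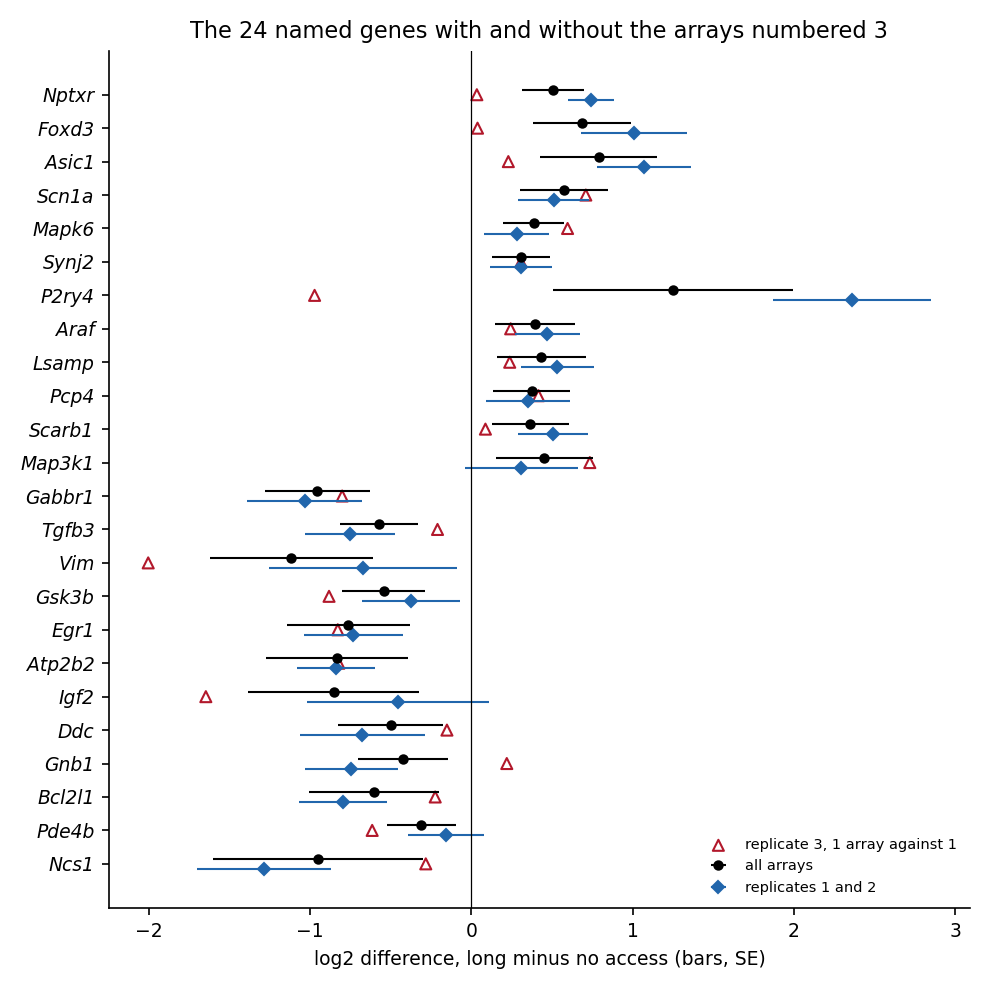
Log2 difference, long minus no access, for the 12 genes of smallest p on each side, with all arrays (black, bars are SE), with replicates 1 and 2 alone (blue, bars are SE) and between the 2 replicate 3 arrays (open triangles, 1 array against 1). For Nptxr and Foxd3 the triangles lie near 0, and for P2ry4 and Gnb1 they lie on the other side of 0.

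Of the glutamate receptor genes, 18 of 24 listed were tested, and 0 rose and 0 fell, with a median difference of 0.01 against 0.03 over all 421 genes. Grin1, the obligatory subunit of NMDA receptors, had the largest difference of the list. Its log2 signals were 8.48, 7.53 and 6.67 on long access replicates 1, 2 and 3, against 9.15, 9.40 and 7.24 on no access replicates 1, 2 and 3. The order of the arrays within each group followed the actin ratio, save that no access replicate 2 was above replicate 1. The difference was -1.04 ± 0.77 with all arrays (limma, unadjusted p = 0.211, adjusted p = 0.996) and -1.28 ± 0.33 with replicates 1 and 2 alone (adjusted p = 0.563). With the log2 actin ratio as a covariate it was -1.05 ± 0.22 (limma, unadjusted p = 0.000769, adjusted p = 0.523), and the other Grin1 probe set gave -0.61 with all arrays. The replicates 1 and 2 of long access include the array with an actin ratio of 1.72, and the part of this in the Grin1 difference was not tested. The covariate cannot decide it. The mean log2 actin ratio was 0.73 with long access and 0.74 with no access, so the covariate could move the difference only a little. The NMDA receptor subunits Grin2a and Grin2b differed by -0.41 and -0.14, the AMPA receptor subunits Gria1 and Gria2 by -0.15 and 0.16, and the metabotropic receptors Grm2 and Grm3, which restrain glutamate release, by -0.06 and 0.15. The kainate receptor subunit Grik2 had log2 signals of 7.62, 7.49 and 7.37 with long access, against 7.08, 6.05 and 7.73 with no access, and differed by 0.54 ± 0.39. Of glutamate uptake and release genes 5 were tested, and 0 rose and 0 fell, with a median of -0.03.

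Of the activity-induced genes 8 of 25 listed were tested, and 0 rose and 0 fell, with a median of 0.08. Egr1, the transcription factor that follows neuronal firing, was measured by 4 probe sets. That of smallest p had log2 signals of 7.98, 7.32 and 6.88 on the long access arrays, against 8.26, 8.50 and 7.70 on the no access arrays, a difference of -0.76 ± 0.38. The other 3 gave 0.05 to 0.21, so the probe sets of this gene did not agree in sign. The neurotrophin gene Bdnf had 7.42, 7.46 and 7.46 on the long access arrays, against 7.69, 8.09 and 7.39 on the no access arrays. Its groups overlapped and the difference was -0.28 ± 0.24. The immediate early genes Fos and Nr4a1 differed by 0.21 and 0.27, both with overlapping groups. The dopamine receptor gene Drd2 was not tested, since its mean log2 signal of 5.14 in the region was under the minimum, and Arc was not analysed here.

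Cck showed how tight the measurement could be for a transcript with a strong signal, at 12.80, 12.72 and 12.75 on the long access arrays, against 12.67, 12.80 and 12.66 on the no access arrays. Its difference was 0.05 ± 0.13, the smallest standard error of all probe sets tested. Of the markers of cortical pyramidal neurons 9 were tested (median 0.01) and of cortical interneurons 7 (median 0.04), and 0 rose and 0 fell in both lists. Gad1, which makes GABA, had 10.58, 10.83 and 11.43 on the long access arrays, against 10.68, 10.61 and 11.45 on the no access arrays, with replicate 3 the highest array of each group by more than the groups differed. The neuropeptide genes Npy and Sst differed by 0.19 ± 0.27 and -0.18 ± 0.27, with 0.02 in a second Sst probe set, and the dopamine receptor gene Drd1 by -0.01 ± 0.35. Of GABA genes 15 were tested, with a median of 0.02, of which the second GABA-B receptor subunit Gabbr2 had -0.32 ± 0.24. Of synaptic vesicle genes 14 were tested (median -0.01), of adhesion genes 11 (0.05), of potassium channels 17 (0.04) and of sodium and calcium channels 14 (0.05), with 0 rising and 0 falling in each list. The same counts of 0 held for monoamine genes (13 tested, median 0.04), acetylcholine genes (6, 0.17), cytoskeletal genes (10, 0.05), neurotrophic genes (15, 0.07), stress and apoptosis genes (13, 0.06), neuropeptides (7, 0.05) and peptide receptors (7, 0.13). They also held for the list of second messenger genes, which covers calcium, cyclic AMP and protein kinase C (23, 0.02), and for that of kinase signalling (6, -0.04).

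Among markers of other cells, the astrocyte list had 8 genes tested and a median difference of -0.18. In that list 7 of 8 were below 0, against 181 of all 421 genes tested, and 0 rose and 0 fell. Its widest members were Kcnj10, an astrocytic potassium channel, and Vim, the intermediate filament of glia, vessels and meninges. Kcnj10 had log2 signals of 7.55, 6.33 and 5.02 on long access replicates 1, 2 and 3, against 8.16, 7.64 and 6.66 on no access replicates 1, 2 and 3, with replicate 3 the lowest array of each group. Its difference was -1.19 ± 0.86. The mean log2 signal of the astrocyte list was 9.75 to 10.58 on the long access arrays and 10.24 to 10.70 on the no access arrays. Oligodendrocyte markers had a median of 0.05 over 7 genes, microglial and immune markers -0.12 over 2, vessel markers 0.00 over 2 and striatal neuron markers -0.02 over 4, again with 0 rising and 0 falling.

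In 1 probe set each of Vim, Igf2 and Igfbp2, the high and low arrays were not those set apart by replicate 3. Vim had log2 signals of 8.62, 6.85 and 6.83 on long access replicates 1, 2 and 3, against 7.77, 9.04 and 8.84 on no access replicates 1, 2 and 3. Igf2, an insulin-like growth factor that choroid plexus and meninges produce, had 9.59, 7.94 and 8.04 on the long access arrays, against 8.54, 9.91 and 9.69 on the no access arrays. The insulin-like growth factor binding protein gene Igfbp2 had 8.24, 6.26 and 6.23 on the long access arrays, against 6.25, 8.96 and 8.59 on the no access arrays. Each was high on 1 of 3 long access arrays and on 2 of 3 no access arrays, and the groups overlapped for all 3 genes. The other probe sets of Igf2 did not show these high and low arrays and gave differences of 0.35 and -0.12. The other Igfbp2 probe set, with the higher mean, had 8.03, 7.80 and 7.68 on the long access arrays, against 7.86, 8.90 and 7.47 on the no access arrays. In each group its highest array was the same as in the first, but no access replicate 3 was low. Its difference was -0.24. For the probe sets of Vim, Igf2 and Igfbp2 given first, the differences were -1.12 ± 0.51, -0.85 ± 0.53 and -1.02 ± 0.88 (limma, adjusted p = 0.996 for each). The choroid plexus list had 3 genes tested and a median of -0.24, and its mean log2 signal was 8.17 to 8.60 on the long access arrays and 8.21 to 9.21 on the no access arrays. The part of such tissue in these differences was not tested.

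The replicate 3 arrays differed from replicates 1 and 2 by far more than long differed from no access. Set against the mean of replicates 1 and 2 of its own group, replicate 3 was lower in all 3 access groups for 203 of 680 probe sets (29.9%) and higher in all 3 for 220 (32.4%). By at least 1 on the log2 scale it was lower in all 3 for 37 (5.44%) and higher for 1 (0.147%), a probe set of the glutamate transporter gene Slc1a3. One Gabbr1 probe set had shifts of -3.20 on the no access array, -3.24 on the short access array and -2.18 on the long access array, and a long minus no access difference of -0.44 ± 1.13. The gap junction gene Gja1 had shifts of -3.10, -2.53 and -2.10, the muscarinic receptor gene Chrm1 -2.51, -2.20 and -2.27, and the actin-binding spine protein gene Synpo -2.04, -2.07 and -2.92, each in that order of access. Synpo had log2 signals of 9.20, 8.68 and 6.02 on the long access arrays, against 9.37, 9.56 and 7.42 on the no access arrays. The adhesion gene Cntn1 had the largest mean shift, with -3.91, -4.58 and -0.80, and was 8.24, 9.05 and 7.85 on the long access arrays, against 9.72, 9.38 and 5.65 on the no access arrays. Its standard error, 1.35, was the largest of all probe sets tested.

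Probe sets of the same gene could move in opposite directions on the replicate 3 arrays. Of 137 genes with several probe sets tested, 70 had both signs, and the median range within a gene was 0.52 on the log2 scale. The widest range, 3.54, was in Itpr1, the receptor that releases calcium from internal stores, with a mean shift of 0.70 in one probe set and -2.84 in another. The names of some probe sets say which part of the transcript they were designed on. The 14 with UTR in the name had a median shift of 0.80 on the no access array, 0.61 on the short access array and 0.14 on the long access array numbered 3, and 10 of 14 were higher in all 3 groups. The 57 with cds in the name had a median shift of -0.43, -0.28 and -0.22, and 28 of 57 were lower in all 3. For the long minus no access difference itself, 67 of the 137 genes had probe sets of both signs, with a median range within a gene of 0.21.

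The long minus no access differences of the medial prefrontal cortex were also set against the mean of those in the other 5 regions, in 1 fit of all 63 arrays. Of 858 probe sets, 0 differed at an adjusted p of 0.05 (0%), 47 (5.48%) had an unadjusted p under 0.05, and the smallest adjusted p was 0.609. The 5 of smallest p on the higher side were the nicotinic receptor subunit gene Chrna5 (0.63), Map3k1 (0.82), Nptxr (0.64), the vesicle protein gene Syn2 (0.58) and Pcp4 (0.58), each as the log2 difference between the region and the mean of the others. Those on the lower side were the sodium channel subunit gene Scn2b (-1.51), Ncs1 (-1.21), the dopamine transporter gene Slc6a3 (-0.94), Bcl2l1 (-0.92) and Egr1 (-0.76). The Scn2b and Map3k1 probe sets, at -1.31 and 1.04 between long and no access in the medial prefrontal cortex, were under its minimum signal and entered through other regions. This Map3k1 probe set is not the one given above. Chrna5 and Slc6a3 were not among the acetylcholine and monoamine genes tested in the medial prefrontal cortex. Their probe sets may thus also have entered through other regions. Nptxr differed between long and no access by 0.51 in the medial prefrontal cortex, against -0.71 to 0.44 in the other regions. This fit pools the spread of all regions, which is narrower elsewhere. Without no access replicate 3, the array with the actin ratio of 3.81, 11 probe sets passed, all lower, among them Scn2b, Ncs1, Grin1 and Kcna6 (adjusted p 0.0236 for these 4). That leaves actin ratios of 1.02 and 1.20 with no access against 1.05, 1.72 and 2.55 with long access. The part of this imbalance in the 11 was not tested. Without long access replicate 1 only Vim passed (adjusted p = 0.0298), and without long access replicate 2 only the purinergic channel gene P2rx6 (adjusted p = 0.0174). When all 3 medial prefrontal cortex arrays numbered 3 were left out, 0 passed, 113 had an unadjusted p under 0.05 and the smallest adjusted p was 0.0509.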

How the data were processed

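Deposited for each probe set was a linear signal intensity; the submitters' processing notes name MAS5, while the version, scaling target and detection calls are not given in the sources used here. The deposited trimmed means, over 2% trimmed signals, lay between 250.8 and 251.3 on all arrays. Of 1322 probe sets, 59 controls were left out of tests; of the other 1263, 1137 had 1 gene symbol, 8 several and 118 none in the platform annotation. Per the labels' protocols, RNA quality was checked before labelling.

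Deposited intensities were multiplied, array by array, to bring the 2% trimmed mean of the non-control probe sets to 500, floored at 32 and converted to log2. The floor understates differences between signals that fall under it, and 22.6% to 25.1% of values per array of the region were at the floor. Probe sets with a mean log2 signal over the region's 9 arrays at or above that of 100 were tested. Of these, 328 carry a suffix for probes shared between transcripts. The 9 arrays were fitted by access group in limma 3.58.1 (R 4.3.3; lmFit, then trended eBayes); p was adjusted by Benjamini-Hochberg, at a threshold of 0.05; the difference from other regions came from 1 fit of 63 arrays in 18 groups. The fits were tested on simulated data. No 2 arrays held identical values. The number of arrays limits precision.

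Members and the 25 gene lists were chosen with earlier results of these data known. Lists use 1 probe set per gene, that of highest mean. Genes named are, of probe sets with 1 symbol, the 12 of smallest p on each side, passing or not, a gene once; up to 4 of smallest p per list; 17 fixed genes; and 5 on each side of the region difference. Kcnh3, Kcna6, P2rx6, Gja1, Chrm1, Cntn1, Itpr1 and the second Slc1a3 probe set were named after their values were seen. Alternatives are given in the closing section.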

Additional observations from a re-analysis of the deposited data

How the results depend on the processing

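Long against no access had 0 probe sets past the adjusted threshold under each of 24 alternatives to the analysis reported. They changed the normalization (quantile, or none beyond the deposited scaling), the floor, the filter (none, or a signal of 200), the intensity trend, the weights of arrays, the use of cross-hybridising probe sets and the arrays in the fit (6 or 63), added the replicate number, the actin ratio or the Gapdh ratio as a term, or left out an array. Replicates 1 and 2 alone and a batch term for the arrays numbered 3 were added after the data were seen. The count at an unadjusted p under 0.05 was 4 in the analysis reported; it was 1 to 18 with an array left out, 25 of 1263 with no filter, 33 with array weights, 39 of 858 with all arrays in 1 fit, 32 with the actin covariate and 17 with the Gapdh covariate or the batch term. With the replicate number as a replicate block 0 passed, 17 had an unadjusted p under 0.05 and the smallest adjusted p was 0.993. Deviations of same-numbered long and no access arrays correlated at 0.41, -0.00 and 0.62, and those of the pairs with short access at 0.23 to 0.79. Because 1 of the 9 was not above 0.1, the numbers were not taken to pair the arrays, although the other 8 were positive. The region difference had 0 passing with the replicate block and with the values as deposited, and 0 to 11 with an array of the region left out, the 11, 1 and 1 given above. Of 2391 comparisons of named genes across alternatives, 2337 kept their sign, 54 in 25 genes did not, and 0 passed the threshold.

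The sign of the log2 difference turned for some genes, none called, and the cause was not tested. With array weights it was -0.19 for Slc1a1, -0.12 for Mapk9, -0.16 for Kcnc2, 0.11 for Adora2a, 0.23 for Drd1, 0.15 for Enpp2, 0.20 for B2m and 0.091 for C4b. With replicates 1 and 2 alone it was -0.19 for Slc1a1, -0.35 for Mapk9, -0.14 for Kcnc2, 0.33 for Adora2a, 0.17 for Drd1, 0.17 for B2m and 0.15 for C4b. For Drd1 it was 0.0061 with quantile normalization and 0.029 with the Gapdh covariate. With an array left out, the ranges that cross 0 were Adora2a -0.38 to 0.33, B2m -0.47 to 0.38, C4b -0.69 to 0.28, Chrm3 -0.0036 to 0.30, Chrnb4 -0.23 to 0.61, Drd1 -0.28 to 0.30, Enpp2 -0.37 to 0.11, Gad1 -0.20 to 0.30, Glud1 -0.0048 to 0.31, Gria1 -0.41 to 0.033, Gria2 -0.11 to 0.39, Grin2b -0.34 to 0.078, Grm2 -0.19 to 0.10, Grm3 -0.018 to 0.33, Hcrtr1 -0.39 to 0.87, Hrk -0.88 to 0.15, Kcnc2 -0.20 to 0.61, Mapk9 -0.20 to 0.97, Nptx2 -0.032 to 1.24, Pdyn -0.21 to 0.50, Penk -0.27 to 0.14, Slc1a1 -0.22 to 0.34, Sst -0.31 to 0.041, Synpo -1.50 to 0.16, Tac1 -0.19 to 0.83. Few arrays and the spread of the region limit what could be detected.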
